A study of Homo sapiens with 2 samples.

Results

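The T-cell receptor, CD3 and CD4 loci are covered here by the TP73 peaks whose summit, the position of highest ChIP coverage in a peak, lay in or within 20 kb of 6 spans of the hg19 build that hold 9 genes or gene clusters. By position alone, 20 of 18908 peaks were members. The spans were TRA with TRD at 22.090 to 23.021 Mb of chromosome 14 (7 peaks), TRB at 141.999 to 142.511 Mb of chromosome 7 (5 peaks), TRG at 38.279 to 38.408 Mb of chromosome 7 (2 peaks), the cluster of CD3E, CD3D and CD3G at 118.175 to 118.225 Mb of chromosome 11 (2 peaks), CD247 at 167.399 to 167.488 Mb of chromosome 1 (2 peaks) and CD4 at 6.898 to 6.930 Mb of chromosome 12 (2 peaks). The ChIP library came from chromatin of TL-Om1 cells pulled down with TP73 antibody ab14430; TP73 binds DNA and regulates genes as a relative of p53. TL-Om1 is an established human line of adult T-cell leukaemia, a cancer of mature T cells. The labels give whole cell extract of the same line as the control, while the peak names contain IgG, so "control" below means whichever library the caller was given. Both libraries came from cells grown with 10% serum, fixed with formaldehyde for 10 min and read as single ends of 50 bases. Each group had 1 library and no other treatment or genotype was labelled, so no value has a replicate error and no test of conditions was possible.

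The T-cell receptor is a pair of chains, alpha with beta or gamma with delta, that binds antigen. Its genes are built by joining V and J segments, and in TRB and TRD also D segments, upstream of a constant gene. The TRD segments lie inside the TRA locus. The receptor chains signal through the CD3 chains, encoded by CD3E, CD3D and CD3G, and the zeta chain, encoded by CD247, while CD4 is the co-receptor for MHC class II. Cells of adult T-cell leukaemia are usually CD4 positive and often carry little T-cell receptor and CD3 on their surface. The data hold no expression values, so these markers could not be checked in the cells.

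The strongest TP73 enrichment of the 6 spans stood at the constant-gene ends of TRA and TRB and near the start of CD4. Fold is the value in the authors' file. It was read as the ratio of ChIP coverage to background at the summit, with 1 added to each as MACS2 does. Fold was at least 20 at 8 of the 20 members (40%), where 23.0% of all 18908 peaks passed the same limit. Of these 8, 4 belonged to TRA/TRD, 2 to TRB, 1 to the CD3 cluster and 1 to CD4. At a fold of at least 10, the count was 11 of 20 (55%), against 59.8% of all peaks. A fold of at least 50 was held by 2 of 20 members (10%), against 3.54% of all peaks. The members were spread over the whole range of folds. Against the quartiles of the whole list, 5 members lay at or below 8.31, 5 more at or below the median of 11.3, 2 between it and 18.7, and 8 above 18.7. Their median fold was 12.5 (quartiles 8.53 and 28.4), against 11.3 over the whole list. Without the TRA/TRD span the median of the members was 9.29, below that of the list, so the direction of the median depended on that span. The other spans were not left out in turn.

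**Figure D1:**
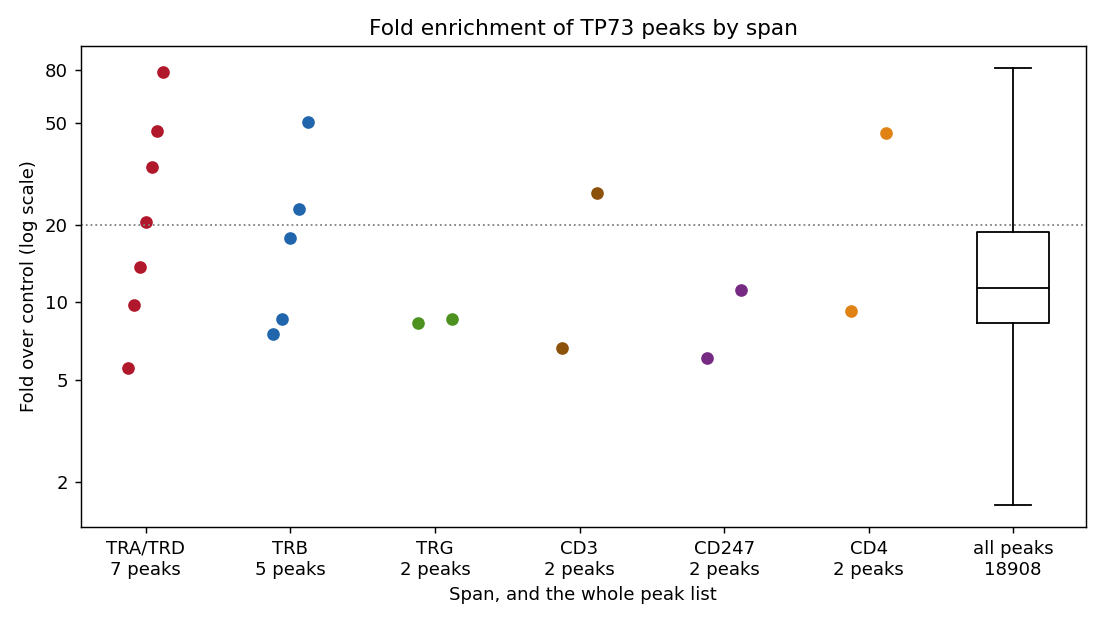
Fold over control on a log axis for each of the 20 members by span (points), beside all 18908 peaks (box with quartiles and median, whiskers to the lowest and highest value). TRA/TRD members run from 5.53 to 78.5, both TRG members lie below 9, and the dotted line marks a fold of 20.

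The TRA/TRD locus encodes the alpha and delta chains. Its first 898.5 kb, 96.5% of the span, held no summit, and the 7 members followed each other within 39.2 kb across the end of the span. Whether the cells still hold all the sequence of this span, or of the other receptor spans, was not tested. In the RefSeq gene table of GRCh38.p14, used for gene order alone, chromosome 14 lists TRAV1-1 as the first TRAV segment. TRDC and TRDV3 stand just before TRAJ61, the J segments run down to TRAJ1, and the constant gene TRAC comes next. LINC02332, LOC105370399 and DAD1, which encodes a subunit of the oligosaccharyltransferase complex, follow. The members therefore lay at the end of the locus that carries the J segments and TRAC, and beyond it on the DAD1 side. Builds differ, so no peak was assigned to a single segment or exon.

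The strongest member, at 23005666 to 23006423 of chromosome 14, had its summit 14.9 kb before the end of the span. Its fold was 78.5 with a −log10 q-value of 426, and 273 ChIP reads covered the summit (95% Poisson interval 241.6 to 307.4). Read numbers are not in the file and were solved for each peak from its deposited p-value and fold. It ranked first of the 623 peaks on chromosome 14 and 13th of all 18908 by fold. Nearer the end of the span, 1.55 kb before it, the peak at 23018952 to 23019671 reached a fold of 46.4, and its summit carried 161 ChIP reads (137.1 to 187.9). These are the 2 widest of the 20 members, with 758 and 720 bp.

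Beyond the end of the span stood 3 further TRA/TRD members within 6.73 kb. At 23025047 to 23025717, 4.44 kb past the end, 116 ChIP reads (95.9 to 139.1) gave a fold of 33.5. At 23023033 to 23023471, 2.32 kb past the end, 83 ChIP reads (66.1 to 102.9) over a control background of 3 reads per 142 bp gave a fold of 20.5. The last, 6.73 kb past the end, had a fold of 5.53. Its 33 ChIP reads equalled those of the first member of the run, 32.5 kb before the end, whose fold was 9.74. Equal reads gave unequal folds here because the control background was 5 reads per 142 bp at the last member and 2.41 at the first. The remaining member, 25.6 kb before the end, had a fold of 13.8. Fold was highest 14.9 kb before the end and lower at every member on either side, though not in steady order, since the peak of 33.5 stood beyond that of 20.5.

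**Figure D2:**
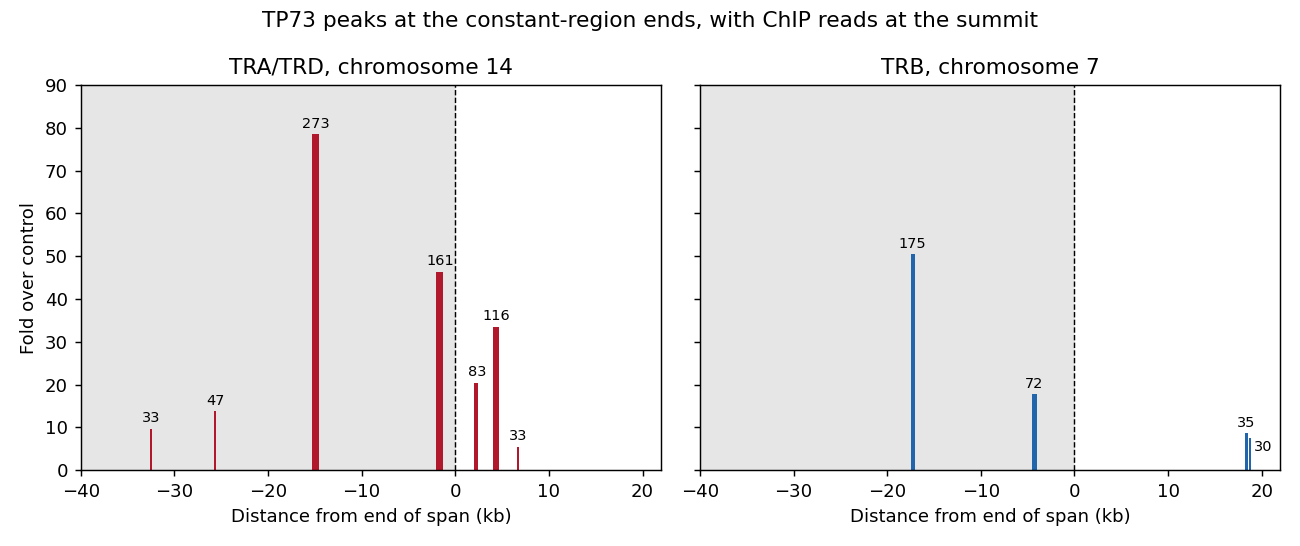
Fold over control (bar height) of peaks against distance in kb from the end of the TRA/TRD span and of the TRB span (dashed line, span shaded), with bar widths to scale and the ChIP reads at each summit above the bars. All 7 TRA/TRD members are in view, with 273 reads at the highest, and 4 of the 5 TRB members, with 175 reads at the highest.

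Runs this tight were also found elsewhere. Across the whole list, 160 runs of 7 neighbouring summits, which can overlap, fitted within 39.2 kb, and 579 peaks (3.06%) belonged to at least 1 such run. The limit was taken from the TRA/TRD run itself. The stretch without a summit before this run reached 237.5 kb upstream of the span and measured 1136 kb in all. Of the 622 intervals between neighbouring summits on chromosome 14, 9 (1.45%) were at least as long, and of the 18498 on the autosomes 324 (1.75%). The median interval on chromosome 14 was 44.7 kb.

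**Figure D3:**
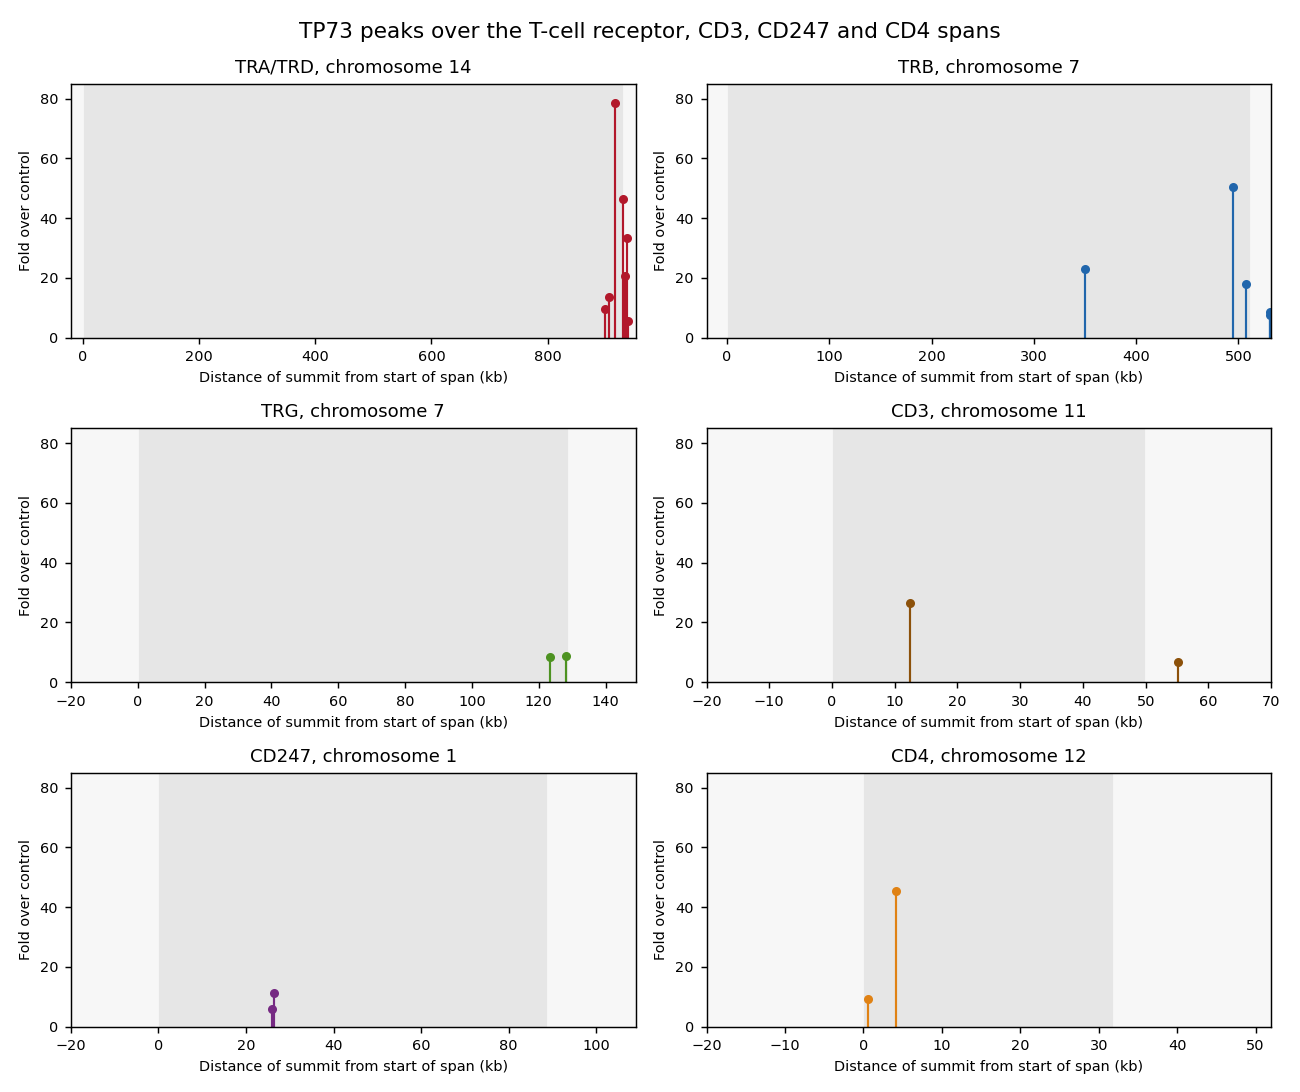
Fold over control of each member (vertical lines topped by points) against distance of its summit in kb from the start of its span, one panel per span, with the span shaded and the flanks of 20 kb paler. TRA/TRD summits begin 898.5 kb into a span of 931 kb, and TRG summits 123.4 kb into a span of 129 kb.

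The TRB locus encodes the beta chain. The first 350.0 kb of its span, 68.4% of its length, held no summit, and 3 members lay in the rest of the span. The whole interval before the first of them measured 497.0 kb, and 6.87% of intervals on the autosomes were at least as long. The strongest, at 142493550 to 142493921 of chromosome 7, lay 17.3 kb before the end of the span. Its fold was 50.4 with a −log10 q-value of 240 and 175 ChIP reads (150.0 to 202.9). It ranked 32nd of 1053 peaks on chromosome 7 by fold. In the RefSeq order, the D, J and constant genes of TRB close the locus, followed by TRBV30 alone, a V segment set apart from the others. A second member at this end, 4.31 kb before the end of the span, reached 17.8 in fold, from 72 ChIP reads and a control background of 3 reads per 142 bp.

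The third TRB member inside the span, at 142348855 to 142349127, stood apart from the others, 144.7 kb before the strongest one. Its 96 ChIP reads (77.8 to 117.2) gave a fold of 22.9. The 2 other TRB members lay 18.3 and 18.8 kb past the end, just inside the limit of 20 kb, with folds of 8.61 and 7.49 and 35 and 30 ChIP reads. Their summits were 431 bp apart. After TRBV30 and LOC105375541, the RefSeq table lists EPHB6, which encodes a receptor of the ephrin receptor family. The first peak left out on this side, 41.1 kb past the end, had a fold of 17.8.

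The TRG locus encodes the gamma chain and lies in the opposite orientation, with the constant genes TRGC2 and TRGC1 at the low end and TRGV1 at the high end of the RefSeq order. Both members stood at the high end, after 123.4 kb without a summit (95.7% of the span). The whole interval before the first of them, 146.8 kb, was of a common length: 25.4% of intervals on the autosomes were at least as long. They lay 5.60 and 0.91 kb before the end, at 38402327 to 38402478 and 38407030 to 38407190 of chromosome 7. Within the limit of 20 kb, TRG therefore had its peaks at the V end, whereas those of TRA/TRD stood at the constant-gene end. Both TRG members were weak. The higher had a fold of 8.60 with a −log10 q-value of 17.9 and 29 ChIP reads (19.4 to 41.6), and the lower a fold of 8.31 with 28 ChIP reads (18.6 to 40.5), so they did not differ beyond counting error. Just outside the limit at the low end, where the constant genes lie, a peak 23.4 kb before the span was left out. Its fold of 10.3 was above that of both members.

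The CD3 cluster encodes the epsilon, delta and gamma chains of CD3. Its 1 member inside the span lay at 118187353 to 118187648 of chromosome 11, 12.5 kb after the start. CD3E comes first in the gene order of the cluster, but the peak was not assigned to a gene. The fold of this member was 26.6 with a −log10 q-value of 101 and 92 ChIP reads (74.2 to 112.8). The other member, 5.17 kb past the end of the span, had 28 ChIP reads and a fold of 6.64. CD3G closes the cluster and UBE4A, which encodes a ubiquitin chain assembly factor, follows it in the gene order. No summit lay in the 37.5 kb from the first member to the end of the span.

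CD247 encodes the zeta chain, the main signalling subunit of the receptor complex. Its 2 members lay 26 kb into the span, with summits 480 bp apart, and the other 62.7 kb of the span held none. The stronger, at 167425241 to 167425436 of chromosome 1, reached a fold of 11.2 with a −log10 q-value of 28.0 and 38 ChIP reads (26.9 to 52.2). The other, at 167424787 to 167424961, had 30 ChIP reads (20.2 to 42.8), a control background of 4 reads per 142 bp and a fold of 6.05. Neither reached a fold of 20, and the read intervals overlapped. Another summit stood within 1 kb of 4 of the 20 members (20%), those of CD247 and the pair beyond TRB, against 13.3% of all peaks.

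CD4, the co-receptor gene, had its 2 members at the start of its span. The stronger lay at 6901850 to 6902370 of chromosome 12, 4.17 kb after the start. Its fold was 45.4 with a −log10 q-value of 263 and 204 ChIP reads (177.0 to 234.0). It ranked 49th of 994 peaks on chromosome 12 by fold. The weaker lay 0.62 kb after the start, at 6898556 to 6898716, with a fold of 9.29 and 45 ChIP reads (32.8 to 60.2). The stronger CD4 member ranked number 2 of the 20 by ChIP reads and number 4 by fold; its control background, 3.41 reads per 142 bp, was above the genome-wide level. The span is given to the nearest kb, so these distances are from the rounded start and not from a start of transcription. The CD4 span lies close to other peaks: the first ones left out stood 35.2 kb before it (fold 26.5) and 31.6 kb after it (fold 16.9).

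Reads and control background show which folds can be set side by side. A median of 46 ChIP reads covered the 20 summits (28 to 273), against 43 (18 to 284) over the whole list. Without the TRA/TRD span the members' median was 38 reads, below that of the list. At 10 of the 20 members (50%) the background was the genome-wide control level of 2.41 reads per 142 bp, the lowest the caller used, against 51.9% of all peaks. Both CD4 members and 4 of 5 TRB members stood above that level. Around TRB and CD4 this held for all peaks within 1 Mb on either side, 10 and 34 peaks, of which 0% were at the genome-wide level. For the 10 members above the level the divisor of the fold rests on local control reads. With every fold recomputed over the genome-wide level, a choice made after seeing the data, 9 of 20 members reached 20, the added one being the TRB member 4.31 kb before the end (20.9 in place of 17.8). The CD4 peak then had 58.7 in place of 45.4, above the strongest TRB peak at 50.4. It also passed the TRA/TRD peak 1.55 kb before the end of its span, at 46.4. The place of the CD4 peak beside those 2 peaks thus depends on the background.

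**Figure D4:**
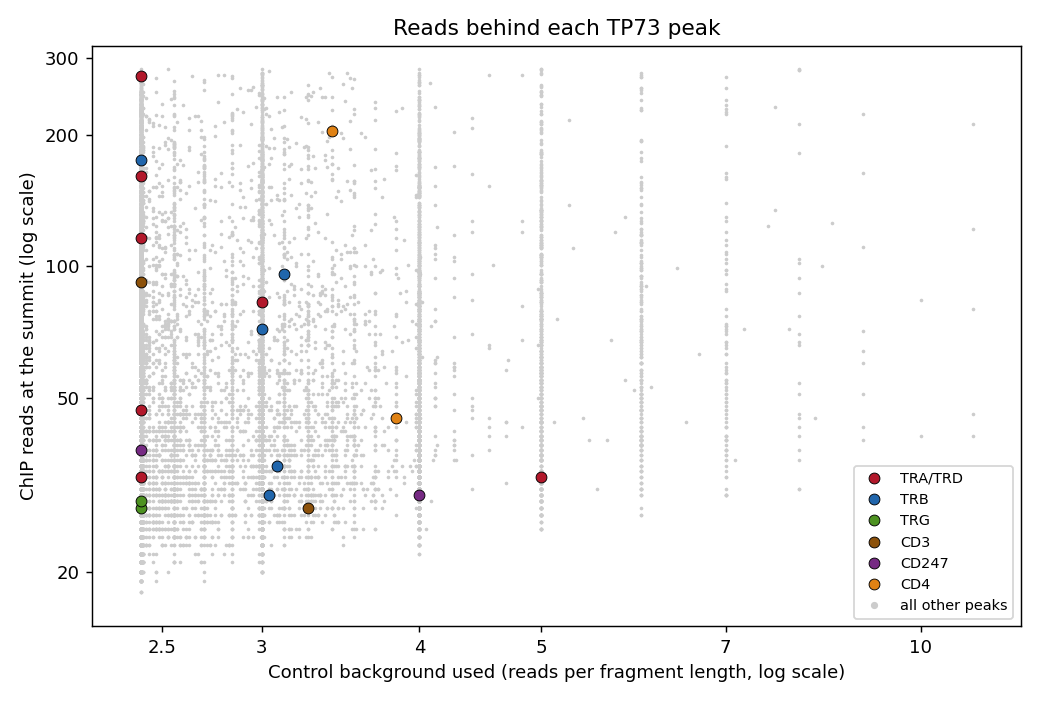
ChIP reads at the summit against the control background used for the peak, both on log axes, for the 20 members (coloured by span) and all other peaks (grey); 11 peaks above 12 control reads, none of them members, are beyond the axis. The column at 2.41 control reads is the genome-wide level, where 10 members stand.

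The density of peaks was set beside that of the surrounding sequence. The 3 receptor spans with their flanks held 14 peaks in 1.69 Mb, or 8.27 per Mb (exact 95% Poisson interval 4.52 to 13.9). The spans of CD3, CD247 and CD4 held 6 peaks in 0.291 Mb, or 20.6 per Mb (7.57 to 44.9). Over the 22 autosomes, each measured from its first to its last summit with all gaps included, the density was 6.65 per Mb. TRA/TRD had 7.21 peaks per Mb (2.90 to 14.9), against 11 (6.89 to 16.7) in the sequence within 1 Mb on either side. TRB had 9.06 per Mb (2.94 to 21.1), against 5 (2.40 to 9.20) around it, and TRG 11.8 (1.43 to 42.8), against 4 (1.73 to 7.88). The CD3 cluster had 22.2 per Mb (2.69 to 80.3), against 20 (14.3 to 27.2) around it. CD247 had 15.5 per Mb (1.88 to 56.0), against 6.50 (3.46 to 11.1), and CD4 27.8 (3.36 to 100.3), against 17.0 (11.8 to 23.8). In each of the 6 pairs the intervals overlapped. Overlap is not a test of a difference, and the difference in density was not tested. Intervals cover counting error only and treat peaks as independent.

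**Figure D5:**
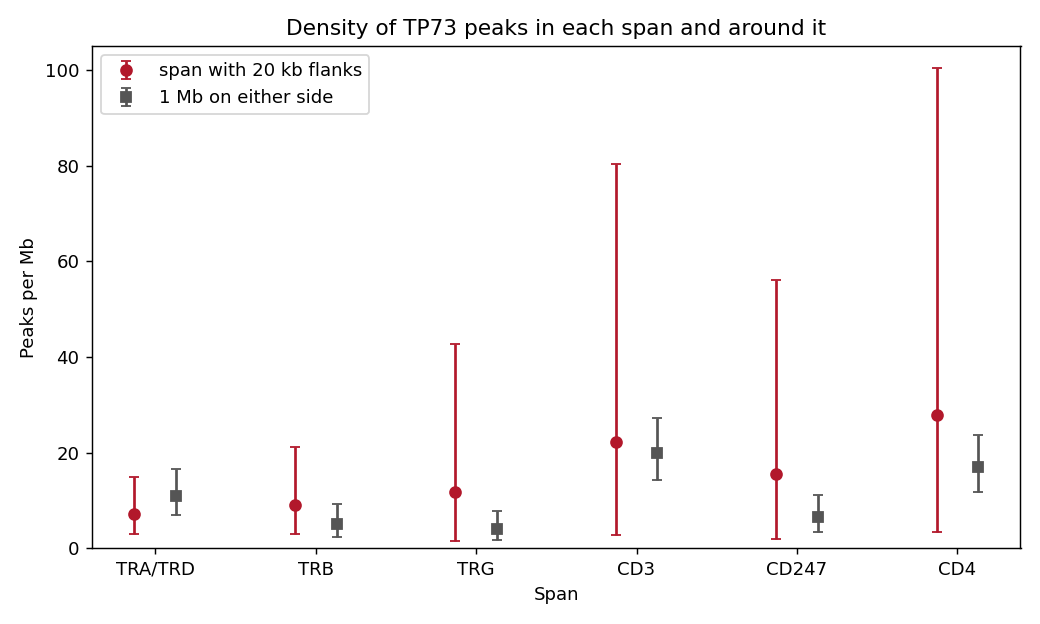
Peaks per Mb in each span with flanks of 20 kb (circles) and in the 1 Mb on either side (squares), with exact 95% Poisson intervals as bars. The intervals of the CD3, CD247 and CD4 spans are wide because each rests on 2 peaks.

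TRA/TRD and TRB each held a peak of higher fold than any within 1 Mb of them, and the other 4 spans did not. The highest fold in TRA/TRD was 78.5, against 66.4 among the 22 peaks within 1 Mb of it, of which 9 had a fold of at least 20. In TRB the highest fold was 50.4, against 37.6 among 10 surrounding peaks, of which 1 reached 20. In the other 4 spans the highest fold was 8.60 against 42.7 around it for TRG, 26.6 against 48.97 for CD3, 11.2 against 55.0 for CD247, and 45.4 against 56.8 for CD4. Within 3 Mb on either side the maximum was 66.4 for TRA/TRD, still below 78.5, and 52.7 for TRB, above its 50.4. A maximum grows with the number of peaks, and these numbers differ, so the values are a description.

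Peaks of at least 500 bp numbered 4 of 20 (20%), against 8.85% of all peaks. They were 3 members of TRA/TRD, with 758, 720 and 671 bp, and the stronger member of CD4, with 521 bp. Width and fold both follow from the coverage, so this is no separate result.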

How the data were processed

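The deposited file is the authors' peak list of the 1 TP73 ChIP library. Bowtie2, SAMtools and MACS2 (2.1.1.2016030) with hg19 were used per the submitters' processing notes; the caller's parameters were not given in those sources. It holds, per peak, the authors' fold (a ratio), the deposited −log10 p-value and q-value, and a deposited score, which was not used. The labels name whole cell extract as control, whereas all 18908 peak names contain IgG, so the control used is not settled.

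Read totals are not in the list. Reads at each summit were recovered by solving fold and p-value for ChIP coverage and background as MACS2 computes them: 1 ChIP read was worth 0.975 units, and 100% of 8987 single-solution peaks not used to fit that step gave whole reads within 0.01. All 20 members had 1 solution. The method was also run on data simulated with the same formulas, which cannot show that the deposited values follow them. Members were placed by summit, and printed positions count from 1. The members, lists and limits were chosen with earlier results of these data known. Position, fold and ChIP reads are given for the highest fold in each span and for every fold of at least 20. The −log10 q-value is given for the highest fold in each span. Peak sequences, motifs, exon positions and a planned list of receptor signalling genes need hg19 sequence or annotation and were not analysed here. Tools were Python 3.11.15 with scipy 1.17.1, numpy 2.4.6 and pandas 2.3.3, and matplotlib 3.10.9 for figures.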

Additional observations from a re-analysis of the deposited data

How the results depend on the processing

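The 20 peaks became 14 with no flank, within 1.5 times of the reported number, as were the counts under the other planned limits. Per span, no flank left 4 TRA/TRD peaks, 3 TRB peaks and 1 CD3 peak, and a flank of 50 kb gave CD4 4 peaks. A −log10 q-value of at least 20 left 1 peak in CD247, 1 in CD3 and 0 in TRG, and raised the median fold to 21.7 and the median ChIP reads to 87.5. Merging peaks closer than 500 bp left 1 in CD247. A fold of at least 50 left 2 of the 8 peaks counted at 20. The density of TRB was 1.21 times that of the sequence within 3 Mb, against 1.81 times within 1 Mb. Leaving out a library was not possible with 1 in each group. No paired analysis was possible because each group has a single library and no test was run. The weakest members rest on 28 ChIP reads.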
